A study of Mus musculus with 23 samples.

Results

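Of 18512 gene symbols counted in the pancreas of 23 mice, 10 were followed here because they are typical of fat cells: *Adipoq*, *Plin1*, *Cfd*, *Fabp4*, *Cidec*, *Retn*, *Plin4*, *Lep*, *Car3* and *Lpl*. The members are a list of gene names, put together with earlier results of these data known, and the values of interest were their spread between mice within each time point and their correlation across mice. All mice were male or female C57BL/6 animals of 6 to 8 weeks from a commercial breeder. The baseline group held 8 non-injured mice (4 female, 4 male). The other groups had received caerulein, a peptide that overstimulates acinar cells, at 50 µg/kg in 8 hourly intraperitoneal injections on each of 2 consecutive days. They were collected at day 7 (8 mice, 4 female and 4 male) or at day 14 (7 mice, 3 female and 4 male). RNA came from the head of the pancreas, was depleted of ribosomal RNA and was sequenced in bulk, 1 library per mouse.

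Fat cells store triglyceride in a lipid droplet whose surface is coated by perilipins, and release hormones called adipokines into the blood. White fat lies around and between the lobules of the pancreas, where lymph nodes and vessels also run, so that a piece of pancreas may carry more or less of it. In bulk RNA a lower level can come from fewer cells of a type or from less RNA per cell, and these cannot be told apart. Among the members, *Adipoq* (adiponectin), *Lep* (leptin), *Retn* (resistin) and *Cfd* (adipsin, the complement factor D that activates the alternative pathway) encode secreted proteins. *Plin1* and *Plin4* encode perilipins, and *Cidec* a lipid droplet protein that promotes droplet growth. *Fabp4* encodes a fatty acid carrier of the cytosol, *Lpl* the lipase that frees fatty acids from circulating lipoproteins, and *Car3* a carbonic anhydrase that is abundant in fat. *Fabp4* and *Lpl* are also expressed by cells other than adipocytes, such as endothelium and macrophages.

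The stretch of 250 bases before the annotated start was available for 7 of the 10 members (8 windows, RefSeq, GRCm38.p6), and was searched on both strands for TTNNGCAA, a form of the motif of C/EBP factors, which act in adipocyte differentiation. The motif lay before *Plin1*, *Lep* and 1 of the 2 starts of *Cidec*, in 3 of 8 windows. It was found in 9.56% of all 32851 windows of this length. The *Plin1* window (chr7:79732777-79733026, minus strand) held 2 matches that began 187 and 58 bases before the start, the *Cidec* window (chr6:113434765-113435014, minus strand) held 1 at 198 bases, and the *Lep* window (chr6:29059971-29060220, plus strand) held 1 at 55 bases. The *Adipoq* window (chr16:23146286-23146535, plus strand) held none. The starts are those of RefSeq, while the gene positions given below are from GENCODE. By those positions the *Plin1* match at 58 bases and the *Cidec* window with the motif lie inside the gene. These letters describe the windows and do not show binding. The sequences are shown because *Adipoq* was the reference gene for the correlations below and the others held the motif, and capitals mark the matches.
Adipoq: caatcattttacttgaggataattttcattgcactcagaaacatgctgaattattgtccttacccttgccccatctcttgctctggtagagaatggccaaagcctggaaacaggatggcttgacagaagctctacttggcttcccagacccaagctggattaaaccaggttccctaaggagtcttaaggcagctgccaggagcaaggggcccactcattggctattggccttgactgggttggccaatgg
Plin1: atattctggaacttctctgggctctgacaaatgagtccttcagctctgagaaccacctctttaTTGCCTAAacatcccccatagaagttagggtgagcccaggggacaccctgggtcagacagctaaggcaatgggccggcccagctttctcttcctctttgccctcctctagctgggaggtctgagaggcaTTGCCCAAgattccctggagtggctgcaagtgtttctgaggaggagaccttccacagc
Cidec: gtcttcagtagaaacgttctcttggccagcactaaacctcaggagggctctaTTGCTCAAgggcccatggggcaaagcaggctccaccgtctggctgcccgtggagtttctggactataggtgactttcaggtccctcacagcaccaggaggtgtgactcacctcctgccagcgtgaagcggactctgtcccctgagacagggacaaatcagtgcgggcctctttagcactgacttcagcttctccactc
Lep: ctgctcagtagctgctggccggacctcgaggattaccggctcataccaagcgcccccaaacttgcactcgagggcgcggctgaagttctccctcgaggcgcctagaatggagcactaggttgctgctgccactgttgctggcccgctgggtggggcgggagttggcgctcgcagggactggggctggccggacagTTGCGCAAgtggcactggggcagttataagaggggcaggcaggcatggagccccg
The direct repeat AGGTCANAGGTCA, a form of the PPAR response element, was in none of the 8 windows and in 0.0335% of all windows. The CCAAT box was in 2 of the 8 windows, those of *Adipoq* and *Plin4*, and in 33.8% of all windows. The TATA box TATAAA was in none of the 8 and in 12.4% of all.

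The libraries held 7059890 to 9567446 counts, with 14641 to 16653 symbols detected per library. Counts were scaled for library size with TMM factors and are given as CPM, the counts of a gene relative to the scaled library, and 12195 genes had enough counts for testing. These included 9 of the 10 members. *Lep*, with 0 to 20 counts per mouse and 0 counts in 9 mice, was not among them. The summed level of the 12 genes of the lymphocyte list was highest in the mice that were highest for most members. Mouse 19 at day 14 carried hepatocyte genes. Both are described below.

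All 10 members are protein-coding genes (GRCm38). The adipokine genes lie at chr16:23146536-23158028 (*Adipoq*), chr6:29060220-29073877 (*Lep*), chr8:3655770-3660110 (*Retn*) and chr10:79890853-79892655 (*Cfd*), all on the plus strand. The lipid droplet genes lie on the minus strand at chr7:79720218-79732903 (*Plin1*), chr17:56100591-56109803 (*Plin4*) and chr6:113424634-113435760 (*Cidec*). *Fabp4* lies at chr3:10204088-10208576 on the minus strand, and *Car3* (chr3:14863512-14872523) and *Lpl* (chr8:68880491-68907448) on the plus strand.

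The members spanned a wide range of abundance. Per kilobase of annotated exon, the median over the 23 mice was 9.76 CPM for *Lpl* and 9.21 CPM for *Cfd*, followed by *Car3* (4.75 CPM) and *Fabp4* (3.87 CPM). *Adipoq* stood at 1.92 CPM per kilobase, *Cidec* at 0.839, *Plin4* at 0.534, *Retn* at 0.213, *Plin1* at 0.187 and *Lep* at 0.0334. The range over mice overlapped between every pair of neighbours in this order, and the order differed from mouse to mouse: *Cfd* ran from 0.189 to 110 CPM per kilobase and *Lpl* from 7.51 to 11.9.

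*Adipoq* was found in nearly all mice at very different levels. At baseline it ran from 0 CPM in mouse 8 through a median of 2.83 CPM to 11.3 CPM in mouse 5. At day 7 it ran from 0 CPM in mice 13 and 16 through a median of 2.36 CPM to 23.6 CPM in mouse 10, which had 316 counts. At day 14 it ran from 0.351 CPM (3 counts, mouse 22) through 1.23 CPM to 9.98 CPM in mouse 21. The 3 time points covered each other widely, and the range inside each was far larger than the differences between their medians. The highest baseline mouse exceeded the lowest at least 21.7-fold, and the highest day 7 mouse exceeded the lowest at least 78.7-fold, both counted against a floor of 3 counts for a library at 0. At day 14 the ratio was 28.4 (95% exact interval 9.43 to 140, for counting error alone).

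The other secreted products followed the same mice. *Cfd* ran from 0.174 to 43.1 CPM at baseline (median 11.9), from 0.809 to 102 CPM at day 7 (median 12.4) and from 0.234 to 38.1 CPM at day 14 (median 5.6). *Retn* ran from 0 to 3.69 CPM at baseline (median 0.368), from 0 to 9.28 CPM at day 7 (median 0.656) and from 0 to 3.97 CPM at day 14 (median 0.336). *Lep* stayed low, with at most 1.27 CPM at baseline, 1.5 CPM at day 7 and 1.07 CPM at day 14, and medians of 0.246, 0.107 and 0.112 CPM. The lowest mice had at most 8 counts of *Cfd* and 0 counts of *Retn* and *Lep* in each time point.

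The lipid droplet genes spread in the same way. *Plin1* ran from 0 to 5.05 CPM at baseline (median 1.13), from 0 to 8.23 CPM at day 7 (median 0.938) and from 0 to 6.01 CPM at day 14 (median 0.336). *Cidec* ran from 0 to 6.03 CPM at baseline (median 1.71), from 0 to 11.4 CPM at day 7 (median 0.986) and from 0.217 to 8.16 CPM at day 14 (median 0.895). *Plin4* was never at 0 and ran from 0.522 to 13.5 CPM at baseline (median 3.61), from 0.400 to 14.0 CPM at day 7 (median 5.02) and from 0.585 to 14.9 CPM at day 14 (median 0.895). *Plin4* overlaps *Hdgfl2* on the opposite strand in the annotation, and whether the counting used strand is not given in the sources used here.

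*Car3* was spread over a similarly wide range. It ran from 0.348 to 50.2 CPM at baseline (median 14.9), from 0.701 to 119 CPM at day 7 (median 11.4) and from 0.585 to 74.4 CPM at day 14 (median 4.70). The highest day 7 mouse stood 169-fold above the lowest (95% exact interval 82.0 to 422), with 1586 counts against 7.

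The lipid uptake genes behaved differently. *Fabp4* ran from 13.3 to 28.1 CPM at baseline (median 17.4), from 10.6 to 56.3 CPM at day 7 (median 14.8) and from 12.3 to 40.9 CPM at day 14 (median 17.7). *Lpl* ran from 78.7 to 117 CPM at baseline (median 104.5), from 82.2 to 118 CPM at day 7 (median 100.1) and from 80.1 to 125 CPM at day 14 (median 102). Both had counts in every mouse, including the 3 mice in which *Adipoq* had 0 counts. The highest *Lpl* mouse exceeded the lowest by 1.49-fold at baseline, 1.44-fold at day 7 and 1.56-fold at day 14.

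The same few mice were highest for most members. Mouse 5 was highest for 7 of the 10 members at baseline, mouse 10 for 9 at day 7 and mouse 21 for all 10 at day 14. Together the members made up between 0.00807% and 0.0640% of a library's counts, the latter in mouse 10. Leaving out *Lpl* and *Fabp4*, the other 8 members summed to 8 counts in mouse 8 and to 3856 counts in mouse 10.

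**Figure D1:**
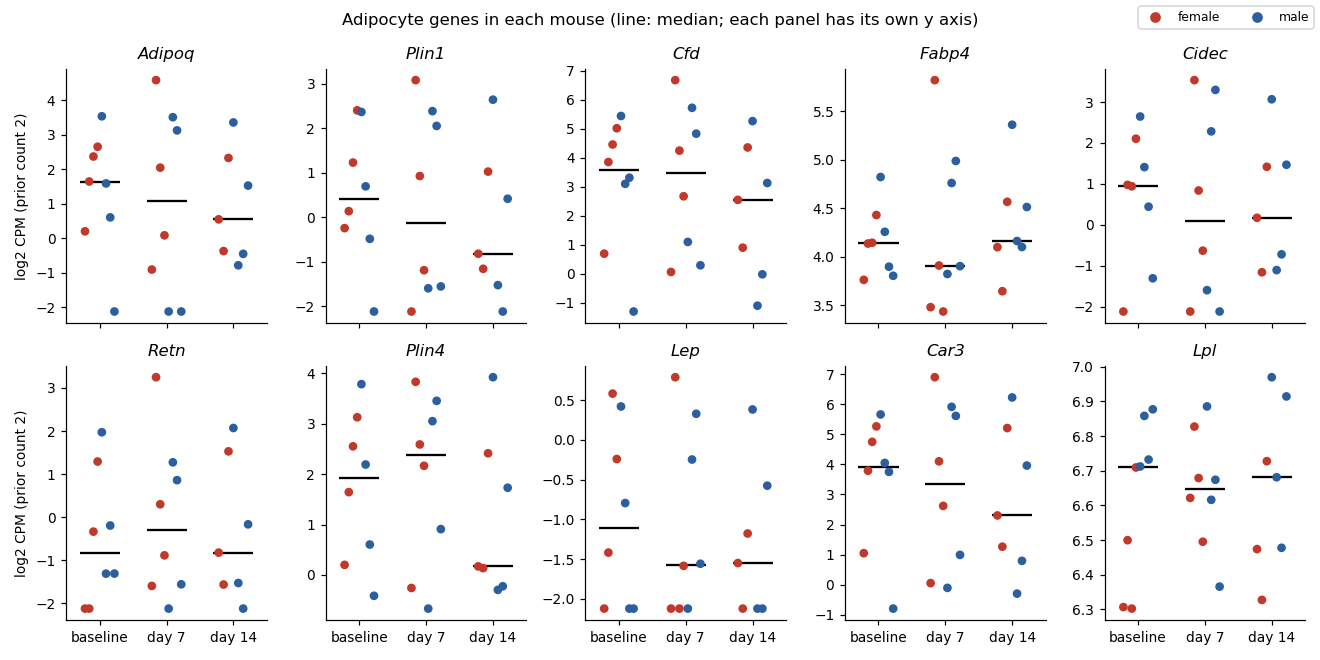
Each panel plots one gene, with the log2 CPM of each mouse (y axis, prior count 2) by time point (x axis), red for female and blue for male mice, and a line at the median. The 3 time points overlap in all 10 panels, and each panel has its own y axis, so that the span of *Lpl* (78.7 to 125 CPM) is far smaller than that of *Car3* (0.348 to 119 CPM).

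The question asked of these genes was how far they differed between mice of the same time point. The SD of log2 CPM within time points was 2.48 for *Car3*, 2.39 for *Cfd*, 2.06 for *Adipoq*, 1.92 for *Cidec*, 1.78 for *Plin1*, 1.66 for *Retn* and 1.60 for *Plin4*. Over all tested genes the median SD was 0.223 and the 95th percentile 0.696. *Car3* ranked 10th, *Cfd* 13th and *Adipoq* 20th of the 12195 tested genes by this SD, and *Plin4*, the last of these 7, ranked 58th. The ranks were not matched for abundance. *Retn*, with median counts of 2.5 at baseline, 6 at day 7 and 3 at day 14, passed the count filter through the mice where it was high. *Plin1*, with median counts of 7, 8.5 and 3, passed the filter in the same way. *Cidec*, with medians of 12, 9 and 8, also had few counts in many mice. The SD of *Retn* and *Plin1*, and their r and slope on *Adipoq* below, are therefore partly set by the filter. Those of *Cidec* may be as well. *Fabp4* had an SD of 0.616, larger than that of 93.3% of tested genes. *Lpl* had an SD of 0.213, close to the middle of all genes, with 46.5% of them below it. The time point accounted for between 0.270% (*Cidec*) and 4.39% (*Plin4*) of a member's variance in log2 CPM, against a median of 13.7% over all tested genes.

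The spread itself was also compared between time points. The baseline mice had an SD of log2 CPM of 1.75 for *Adipoq*, the day 7 mice of 2.64 and the day 14 mice of 1.57, and the mean absolute deviations from the time point's median were 1.24, 2.29 and 1.26. In an exact two-sided permutation test of these deviations over mice, run on all tested genes, the day 7 and baseline deviations of *Adipoq* gave p = 0.0765 and those of day 14 and day 7 gave p = 0.0549, with adjusted p of 0.996 and 1. None of the 9 tested members was called in any of the 3 comparisons of spread, nor was any other gene (0% called in each). The smallest p that these exact tests allow is 0.000155, so that at least 38 genes would have to reach it before any could be called, and the absence of calls says little about the spread. Unadjusted, 546, 419 and 378 of the 12195 genes had a p below 0.05. All tested members but *Lpl* had a larger mean deviation at day 7 than at baseline, by 0.14 (*Plin4*) to 1.05 (*Adipoq*) log2 units. These genes moved together over the same mice and are not separate observations, and the smallest permutation p among them was the 0.0765 of *Adipoq*. The share of all tested genes with a larger deviation at day 7 is not given here, so that no rise in spread is shown.

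Across mice, 8 of the 9 tested members went up and down together. With the mean of each time point removed, the Pearson r of the 36 pairs of members had a median of 0.870. The 28 pairs without *Lpl* had r between 0.766 and 0.982 with a median of 0.913, and Spearman's rho had a median of 0.907. The closest pair was *Cfd* and *Car3* (r = 0.982). For comparison, the median r of a member with the tested genes outside the list lay between -0.03 and -0.02 for each of the 9. All values are scaled by library and share its depth, so that these pairs are not free of a common scale.

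*Adipoq* served as the reference. Its r was 0.963 with *Car3*, 0.960 with *Plin1*, 0.95 with *Cfd*, 0.938 with *Cidec*, 0.924 with *Plin4*, 0.860 with *Retn* and 0.826 with *Fabp4*. Among all 12194 other tested genes, *Car3*, *Plin1*, *Cfd*, *Cidec* and *Plin4* held the first 5 ranks by r with *Adipoq*, *Retn* rank 14 and *Fabp4* rank 26. Spearman's rho was between 0.837 (*Fabp4*) and 0.979 (*Car3*) for these 7. In permutations of mice within time points (100000), Pearson's r gave p = 1e-05, the smallest they can give, for all but *Fabp4* (p = 2e-05), with adjusted p over all tested genes of 0.00244 and 0.00287. For Spearman's rho the p-values were the same and the adjusted p 0.00330 and 0.00393. At an adjusted p of at most 0.05, 12.0% of tested genes were called for r with *Adipoq*, against 7 of 8 members.

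The relation held inside each time point. The r with *Adipoq* of the 7 genes lay between 0.628 (*Retn*) and 0.962 (*Cfd*) over the 8 baseline mice, between 0.821 (*Fabp4*) and 0.975 (*Car3*) over the 8 day 7 mice, and between 0.888 (*Fabp4*) and 0.991 (*Car3*) over the 7 day 14 mice. Without the 2 mice farthest from the median of *Adipoq*, mouse 8 at baseline and mouse 13 at day 7, both at 0 counts as was mouse 16, r stayed between 0.863 (*Fabp4*) and 0.960 (*Plin1*). The mice did not fall into separate clusters, since the largest gap between neighbouring values of *Adipoq* was 17.4% of the range after removal of the time point means.

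*Lpl* stood apart. Its r with *Adipoq* was 0.239 (p = 0.260, adjusted p = 0.490) and its rho 0.233 (p = 0.278, adjusted p = 0.515, permutations within time points). Over the baseline mice r was -0.21, over the day 7 mice 0.318 and over the day 14 mice 0.759, and whether these differ was not tested. Without the 2 mice farthest from the median of *Adipoq* it was 0.581. The r of *Lpl* with the other 8 tested members lay between 0.239 and 0.469.

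**Figure D2:**
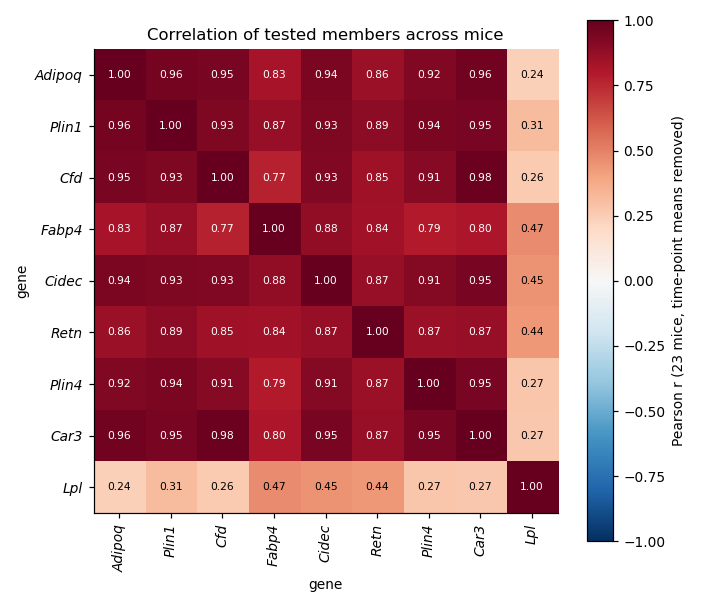
Pearson r of each pair of the 9 tested members over 23 mice, on log2 CPM with time point means removed, from blue (-1) to red (1), with rows and columns as genes. The block of 8 genes shows r of 0.77 and above, and the last row and column (*Lpl*) show r of at most 0.47.

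The slopes of the members on *Adipoq* showed how steeply they moved. The edgeR quasi-likelihood fit held time point, sex and the log2 CPM of *Adipoq*. A slope of 1 means that a gene doubled when this log2 CPM rose by 1. The log2 CPM includes the prior count, which narrows its range in mice with few *Adipoq* counts. A slope above 1 therefore does not show that a gene rose more steeply than *Adipoq* itself. The slope was 1.23 (SE 0.0950) for *Retn*, 1.17 (SE 0.0673) for *Plin1*, 1.15 (SE 0.0610) for *Car3*, 1.11 (SE 0.0686) for *Cidec* and 1.07 (SE 0.0610) for *Cfd*. *Plin4* had a slope of 0.76 (SE 0.0706) and *Fabp4* of 0.28 (SE 0.0321). *Lpl* had a slope of 0.03 (SE 0.0181, adjusted p = 0.253). A positive slope was called, at an adjusted p of at most 0.05, for 7 of the 8 members other than *Adipoq*, the largest adjusted p among them being 1.27e-05 (*Fabp4*). Of all tested genes, 10.7% had a positive slope called and 5.66% a negative one, and the middle 90% of slopes lay between -0.06 and 0.20. *Lep*, in a fit without the filter on low counts, had a slope of 1.02 (SE 0.135, edgeR adjusted p = 2.28e-06).

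The depth of the libraries moved with *Adipoq*. Total counts had r = 0.651 with it (permutation p = 0.00184) and rho = 0.649 (p = 0.00193), the TMM factor r = 0.675 (p = 0.00161) and rho = 0.699 (p = 0.00129), and the number of symbols detected r = 0.796 (p = 1e-05) and rho = 0.793 (p = 3e-05). Over these 3 measures the adjusted p-values of r were at most 0.00184 and of rho at most 0.00193. Without the 2 farthest mice r was 0.667, 0.679 and 0.808, and within time points it lay between 0.496 and 0.874. With log2 total counts as a further covariate, chosen after seeing the data, the slope was called for 7 of 8 members, where 2.94% of all tested genes were called in either direction, and the median slope of the members was 1.12, against 1.09 without it.

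**Figure D3:**
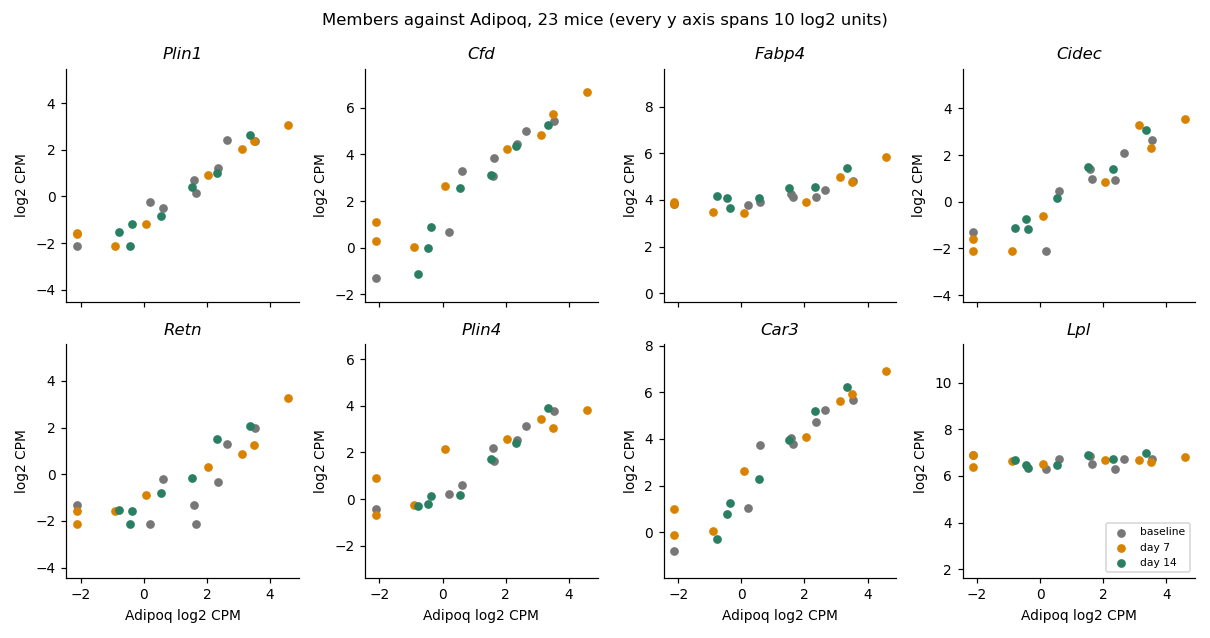
The log2 CPM of each of 8 members (y axes, all 10 log2 units tall) against that of *Adipoq* (x axis), 1 point per mouse, coloured by time point. Mice of all 3 time points lie on common rising bands for 6 genes, *Fabp4* rises at the upper end, and *Lpl* is nearly flat.

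Against this spread no difference between time points was detected. At day 7 all 9 tested members had a log2 fold change above 0 relative to baseline, from 0.02 (*Lpl*) to 0.85 (*Retn*), with a median of 0.66 against 0.02 over all tested genes. None passed both thresholds (adjusted p up to 0.05, fold change of 1.5 or more in either direction), which 5.13% of all tested genes did, and none had an unadjusted p below 0.05. For *Adipoq* the log2 fold change was 0.66 (SE 0.921, edgeR adjusted p = 0.658, 95% interval -1.27 to 2.59). For *Cfd* it was 0.66 (SE 0.905), for *Cidec* 0.69 (SE 0.946), for *Car3* 0.66 (SE 0.962), for *Plin1* 0.30 (SE 0.933) and for *Plin4* 0.27 (SE 0.763). *Fabp4* had 0.32 (SE 0.340). For *Lpl* the interval was narrow, at 0.02 (SE 0.0883, 95% interval -0.16 to 0.21). The direction rested on mouse 10. Without it, all 8 members then tested had a log2 fold change below 0, from -0.55 (*Plin1*) to -0.02 (*Lpl*), with a median of -0.22 and none called.

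At day 14 the log2 fold change from baseline ran from -0.61 (*Cfd*) to 0.22 (*Fabp4*), with a median of -0.13 and 3 of 9 members above 0. None was called, where 0.787% of tested genes were, and the smallest adjusted p of a member was 0.869. *Adipoq* had -0.42 (SE 1.02), *Plin1* -0.55 (SE 1.04), *Plin4* -0.40 (SE 0.828), *Cidec* -0.13 (SE 1.03), *Car3* -0.08 (SE 1.03), *Retn* 0.20 (SE 1.12) and *Lpl* 0.02 (SE 0.0915). From day 7 to day 14 all 9 were at or below 0 (-1.27 for *Cfd* to -0.01 for *Lpl*) with none called, where 0.377% of tested genes were, and the smallest adjusted p was 0.596. Without day 7 mouse 10 the value was 0.10 for *Car3* and 0.31 for *Fabp4*, and that of *Lpl* changed sign under 11 of 31 settings. DESeq2 called none of the 10 members in these 3 comparisons either, and none had an unadjusted p below 0.05 in the edgeR fit.

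Between the sexes the members were not told apart. The log2 difference of female minus male mice ran from -0.49 (*Cidec*) to 0.32 (*Retn*) over the 9 tested members, with 3 above 0 and none called by edgeR or DESeq2, where 0.230% of tested genes were. The sign changed under 12 of 29 settings for *Adipoq* and *Car3*, and *Cfd* had -0.49 without day 7 mouse 10. *Lpl* alone had an unadjusted p below 0.05, with a difference of -0.19 (SE 0.0739) and an edgeR adjusted p of 0.399. In the fit with a term for each sex and time point *Lpl* had -0.33 (SE 0.120) at baseline, 0.01 (SE 0.118) at day 7 and -0.26 (SE 0.129) at day 14, and the interaction of sex with time was not called for any member (smallest adjusted p 0.914, *Lpl* at day 7, edgeR).

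**Figure D4:**
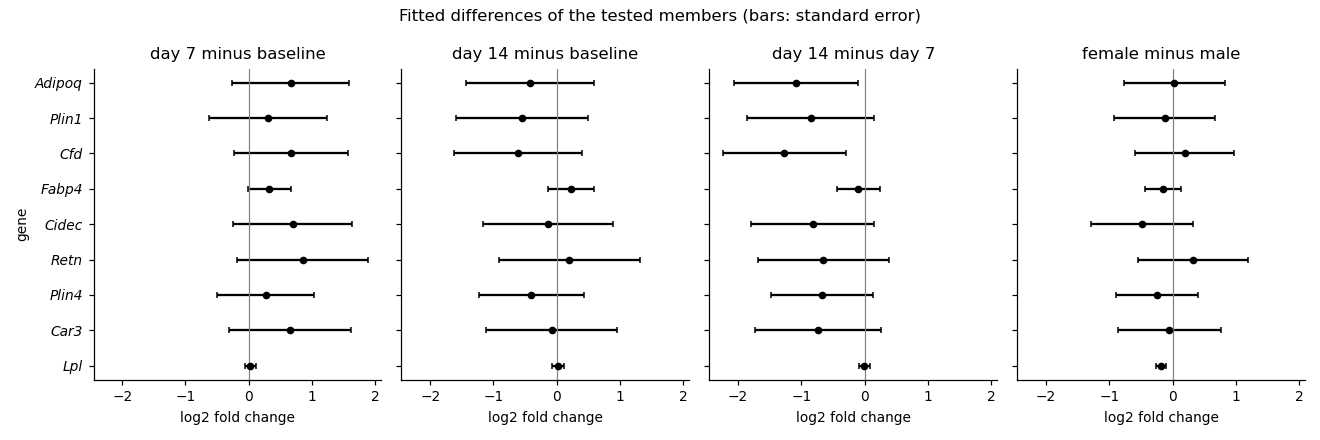
The fitted log2 fold change (x axis, points) with its standard error (bars) for the 9 tested members (y axis) in 4 contrasts, all on 1 scale. Points lie to the right of 0 at day 7 and to the left from day 7 to day 14, with wide bars for 7 members, shorter ones for *Fabp4* and the shortest for *Lpl*.

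Other genes of fat metabolism followed *Adipoq* unevenly. For these and the later lists, the share over all tested genes was 10.7% with a positive slope called and 5.66% with a negative one. With log2 total counts in the fit it was 2.94% in either direction. Of 15 genes of fatty acid and triglyceride synthesis, all tested, 11 had a positive slope called and none a negative one, with a median slope of 0.17. The steepest was *Pck1*, which makes the glycerol backbone in fat (1.22, SE 0.158), followed by *Thrsp*, a regulator of lipogenesis (0.82, SE 0.0731). *Me1*, the malic enzyme that supplies NADPH, had 0.52 (SE 0.0841), *Dgat2*, which adds the last acyl chain, 0.48 (SE 0.0595), *Scd1*, the stearoyl-CoA desaturase, 0.42 (SE 0.0523) and the fatty acid synthase *Fasn* 0.22 (SE 0.0434). *Acly*, *Dgat1*, *Gpam* and *Lpin1* were not called, with slopes between -0.01 and 0.03. With log2 total counts as a further covariate 4 of the 15 were called, with a median slope of 0.13.

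Of 10 tested genes of the lipid droplet and lipolysis, 2 had a positive slope called, against 10.7% of all tested genes, a difference not tested. They were *Lipe*, the hormone-sensitive lipase (0.27, SE 0.0372), and *Plin2*, a perilipin of many cell types (0.19, SE 0.0409). *Pnpla2*, the first lipase of triglyceride breakdown, had 0.05 (SE 0.0258, adjusted p = 0.177). Of 10 transcription factors of adipocytes 1 was called, *Ebf1* (0.15, SE 0.0378), which B cells also express. *Pparg*, the master regulator of adipocyte differentiation, had 0.09 (SE 0.0505, adjusted p = 0.218), and *Cebpa*, its partner, -0.0047 (SE 0.0169, adjusted p = 0.893). Of 10 tested surface and signalling genes 3 had a positive slope called, *Cd36* (0.25, SE 0.0377), *Cav1* (0.16, SE 0.0249) and *Cav2* (0.08, SE 0.0247), and the insulin receptor *Insr* had a negative one (-0.05, SE 0.0134). With log2 total counts in the fit, 1 of the 10 lipid droplet genes (*Lipe*), 0 of the 10 transcription factors and 2 of the 10 surface genes (*Cd36* and *Cav1*) were called, and *Insr* had an edgeR adjusted p of 0.288.

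Of 9 tested adipokine receptors and other adipokines, 5 had a positive slope called (*Lepr* 0.30, SE 0.0651, *Retnla* 0.28, *Cmklr1* 0.13, *Rarres2* 0.11 and *Nampt* 0.07), and *Adipor1*, a receptor of adiponectin, had a negative one (-0.03, SE 0.0113). Among the partners of lipoprotein lipase, its inhibitor *Angptl4* had 0.50 (SE 0.101), and the anchor *Gpihbp1* and the maturation factors *Lmf1* and *Sel1l* were not called (-0.05 to -0.03). Of 6 genes of the alternative complement pathway, in which *Cfd* acts, 5 had a positive slope called, among them *Cfb* (0.43, SE 0.0909), *Cd55* (0.35, SE 0.0636), *C3* (0.24, SE 0.0623) and *Cfp* (0.18, SE 0.0542). With log2 total counts in the fit the count of complement genes called was 1 of 6, and that of the adipokine list 0 of 9.

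Genes of other cell types moved with the members, the lymphocyte genes most of all. All 6 tested genes of the lymphocyte and lymph node list had a positive slope called, among them *Cr2*, the complement receptor of B cells and follicular dendritic cells (1.47, SE 0.186), *Cd79a* (1.13, SE 0.174), *Cd79b* (1.12, SE 0.137), *Ms4a1* (1.09, SE 0.152) and *Ltb* (0.94, SE 0.158). Their r with *Adipoq* lay between 0.699 and 0.819. Without the filter on low counts all 12 genes of the list were called, among them *Cd8a* (1.69, SE 0.213) and *Ccr7* (1.64, SE 0.196), with a median slope of 1.27. The share of all genes called in that fit is not given here. The summed level of the 12 genes ran from 0.348 to 99.9 CPM at baseline, from 0.879 to 163 CPM at day 7 and from 0.468 to 98.1 CPM at day 14, and it was highest in mice 5, 10 and 21, the mice that were highest for most members. With log2 total counts in the fit 5 of the 6 were called.

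When *Cr2* was added to the fit as a further covariate, also chosen after seeing the data, the slope on *Adipoq* was called for 6 of all 12194 tested genes (0.0492%). These were 5 of the 8 members, *Plin1*, *Cfd*, *Cidec*, *Retn* and *Car3*, together with *Thrsp*, and the members' median slope was 0.96. *Plin4* had 0.58 (SE 0.111, edgeR adjusted p = 0.0608) and *Fabp4* 0.20 (SE 0.0534, adjusted p = 0.721). Apart from *Thrsp*, no gene of the other lists was called in that fit. The other 5 lymphocyte genes had a median slope of 0.14, the complement genes of -0.0081, the macrophage genes of 0.024, the smooth muscle genes of 0.096 and the endothelial genes of 0.022, and *Angptl4* had 0.11 (SE 0.141). *Cr2* is itself of the lymphocyte list and had r = 0.786 with *Adipoq*. Standard errors were larger in this fit, with 0.117 for *Plin1* against 0.0673 without *Cr2*. Both lower the number of calls, so that this fit cannot separate fat cells from lymphocytes.

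Of 9 macrophage genes 7 had a positive slope called, where 10.7% of all tested genes did. Their median slope was 0.13, with *Csf1r* the steepest (0.24, SE 0.0524). Their summed level ran from 45.4 to 136 CPM at baseline, from 84.7 to 180 CPM at day 7 and from 64.8 to 109.6 CPM at day 14. Of 8 endothelial genes 4 were called, *Pecam1* (0.16, SE 0.0273), *Cdh5* (0.13), *Egfl7* (0.11) and *Kdr* (0.06), and the list summed to 69.7 to 137 CPM. All 3 tested smooth muscle genes were called, *Acta2* (0.48, SE 0.101), *Tagln* (0.43, SE 0.0825) and *Myh11* (0.43, SE 0.0786), and the list summed to 7.15 to 92.5 CPM. None of the 9 tested genes of adipose progenitors and fibroblasts was called (slopes of -0.03 to 0.08, summed level 153 to 439 CPM), nor any of 6 mesothelial genes (-0.04 to 0.10, 8.69 to 35.6 CPM). With log2 total counts in the fit, 0 of the 9 macrophage genes, 0 of the 8 endothelial genes and 2 of the 3 smooth muscle genes were called. The part of these cells in the members' values was not tested.

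Among the brown fat markers *Ucp1* and *Cidea* were close to absent, with 4 and 10 counts over all 23 mice. *Dio2* had 82 counts and was at 0 in 2 mice. *Prdm16*, the 1 brown adipocyte gene tested, was found in every mouse. It ran from 17.5 to 18.8 CPM at baseline and from 11.2 to 16.8 CPM at day 7. At day 14 it ran from 12.99 to 19.4 CPM. Its slope was -0.05 (SE 0.0185, adjusted p = 0.0608). Skeletal muscle genes were all below the filter, with a summed level of 0.537 to 2.02 CPM. Of 2 tested hepatocyte genes *Cyp2e1* had a slope of 1.17 (SE 0.172) and *Alb* 0.88 (SE 0.341, adjusted p = 0.0853). The summed hepatocyte list reached 568.4 CPM in mouse 19 at day 14 and at most 23.3 CPM in any baseline or day 7 mouse.

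Most pancreatic genes had shallow slopes, with *Ppy* an exception. All 7 acinar genes had a negative r with *Adipoq*, between -0.70 and -0.33. The permutation adjusted p of r was 0.00975 for *Cela1* and 0.0261 for *Cel*. Of 7 acinar genes *Cela1* (-0.06, SE 0.0155) and *Cel* (-0.05, SE 0.0140) had a negative slope called, which 5.66% of all tested genes had, and all 7 slopes lay between -0.06 and -0.03. Neither was called with log2 total counts in the fit, with -0.03 and an edgeR adjusted p of 0.426 for *Cela1* and -0.03 and 0.333 for *Cel*. Of 6 islet genes *Ppy*, pancreatic polypeptide, was called (0.71, SE 0.148, and 0.69 with an adjusted p of 0.0664 with log2 total counts in the fit), and no duct gene of 4 (-0.10 to -0.04), no erythroid gene of 3 (0.19 to 0.22) and not the 1 tested enterocyte gene, *Cdhr2* (-0.01), was.

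The other lists were compared between time points by the same rule as the members. At day 7, where 5.13% of all tested genes were called, 7 of 9 macrophage genes and 6 of 9 tested fibroblast genes were higher than at baseline (median log2 fold change 0.89 and 0.70), and 5 of 7 acinar genes were lower (-0.70). Whether these lists differed from the members, whose median was 0.66 with far larger standard errors, was not tested. Of the 6 tested lymphocyte genes none passed it at day 7 (median 1.20) or day 14 (0.27).

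**Figure D5:**
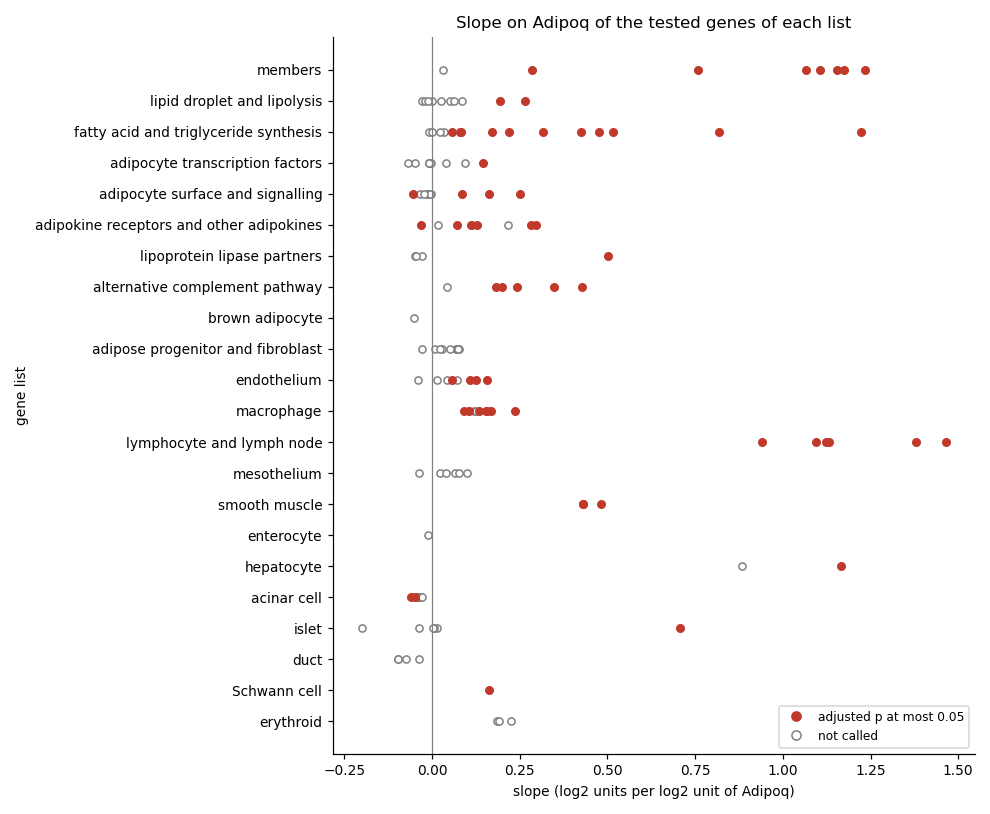
The slope on *Adipoq* (x axis, log2 units per log2 unit) of each tested gene of each list (y axis), with filled red points called at an adjusted p of at most 0.05 and open points not called. The members *Retn*, *Plin1*, *Car3*, *Cidec* and *Cfd* and the lymphocyte genes hold the largest slopes, near or above 1, with *Pck1* and *Cyp2e1*. The members *Plin4* (0.76), *Fabp4* (0.28) and *Lpl* (0.03) lie below, as do most other genes.

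The 20 genes outside the members whose pattern was most like that of *Adipoq*, by Pearson r over 23 mice with time point means removed, had r between 0.826 and 0.912. Among them was *Prkar2b*, a regulatory subunit of protein kinase A that is abundant in fat (r = 0.898, rho = 0.869). It was followed by *Thrsp* (0.893), *Pck1* (0.873), *Scd1* (0.871), *Cyp2e1* (0.864), *Mmd* (0.863) and *Abcd2*, a peroxisomal fatty acid transporter (0.861). Further genes of the 20 were *Klf2*, *Napsa*, *Enpp2*, which encodes autotaxin, *Dgat2*, *Icam1*, *Itga9*, *Gucy1a3*, *Cyld*, *B3galt2*, *Serpinb6b*, *Mmp9* and *Gm1966*. For all 20 the permutation adjusted p of r was 0.00244 or 0.00287. The 5 genes of lowest r were *Slc25a3* (-0.83), *Spint1* (-0.82), *Cul4a* (-0.81), *Hbs1l* (-0.81) and *Bspry* (-0.80), with slopes of -0.09 to -0.04, far shallower than those of the members.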

How the data were processed

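The authors deposited 1 table of whole-number read counts per gene symbol for each mouse. Per the labels, reads were trimmed and checked with Trim Galore, cutadapt and FastQC, aligned to mm10 with STAR 2.5.2a and counted with featureCounts. The annotation and strand setting of the counting are not given in the sources used here. No 2 libraries were identical. Groups were taken from the sample titles, and whether mice within a group shared a cage or litter is not given.

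Counts were scaled by TMM and filtered with filterByExpr by time point, and tested with edgeR 4.0.16 (R 4.3.3, estimateDisp, glmQLFit with robust, glmQLFTest), with all 23 mice in 1 fit with time point and sex, and Benjamini-Hochberg adjustment over all 12195 genes. A gene was called at an adjusted p of at most 0.05 and, for fold changes, a fold change of at least 1.5. The log2 CPM used a prior count of 2. Slopes came from the same fit with the log2 CPM of *Adipoq* added. Intervals of fold changes used Student's quantiles of the fit's residual degrees of freedom. Correlations used 100000 permutations of mice within time points and the comparison of spread all assignments of mice (scipy 1.17.1). Exact intervals of the ratio of 2 mice and the floor of 3 counts cover counting error only. Exon lengths and overlaps came from GENCODE on GRCm38, the build of mm10, and windows before gene starts from RefSeq, GRCm38.p6. Scripts were tested on simulated data.

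The named genes were the 10 members, the 20 genes of highest and the 5 of lowest r with *Adipoq*, and up to 6 called genes of each list. A few genes that this rule would name are not reported here. *Lep*, *Acly*, *Pnpla2*, *Pparg*, *Cebpa* and other genes not called are named outside that rule for their roles, with their values known, and *Cd8a* and *Ccr7* were named after their values were seen. The members and lists were chosen with earlier results of these data known. Alternatives were DESeq2 1.42.0, other scalings, filters, prior counts and covariates, and leaving out each mouse. The mouse numbers were unique to a group and no pairing was possible.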

Additional observations from a re-analysis of the deposited data

How the results depend on the processing

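No member was called between time points, between the sexes, in the interaction or in the comparisons of spread under any of the alternatives run. The slope on *Adipoq* was called for 8 of 8 members with total count scaling (*Lpl* 0.06), for 8 of 9 without the filter and with DESeq2, for 7 of 8 without most single mice, and for 6 of 7 without mouse 4, 5, 10, 14 or 15, where *Retn* fell below the filter. With at least 10 counts required in every mouse it was called for 1 of the 2 members tested, *Fabp4*, since the other members were filtered out. The share of all tested genes called under these settings is not given here, so that these counts cannot be set against it. Total count scaling leaves out the TMM factor, which itself moved with *Adipoq* (r = 0.675). The median r of member pairs was 0.870, between 0.852 and 0.899 without any 1 mouse, 0.831 with a prior count of 0.5 and 0.892 when centred by time point and sex. The median SD of the members was 1.78, and 2.39 with a prior count of 0.5, which narrows the log2 CPM of low counts less. The SD of members with few counts thus depends on the prior count chosen.

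Directions of uncalled fold changes depended on single mice. Leaving out each mouse in turn, the day 7 log2 fold change lay between -0.29 and 1.20 for *Adipoq*, -0.29 and 1.03 for *Car3*, -0.21 and 1.14 for *Cfd*, -0.23 and 1.06 for *Cidec*, -0.12 and 0.44 for *Fabp4*, -0.55 and 0.74 for *Plin1*, -0.18 and 0.71 for *Plin4*, and -0.019 and 0.077 for *Lpl*. The values below 0 came without day 7 mouse 10 and, for *Lpl*, also without mouse 1, 3 or 13. At day 14 it lay between -1.23 and 0.20 for *Adipoq*, -1.37 and 0.12 for *Plin4*, -1.05 and 0.35 for *Car3*, -0.96 and 0.30 for *Cidec*, -0.74 and 0.43 for *Retn*, and -0.023 and 0.061 for *Lpl*, the highest for *Adipoq*, *Plin4*, *Car3* and *Cidec* without baseline mouse 5 and the lowest of all 6 without day 14 mouse 21. Total count scaling gave 0.12 for *Car3* and 0.063 for *Cidec* at day 14. At these depths *Lep* and other low genes did not pass the filter and were tested only without it and by DESeq2.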

Other observations

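Of 14 genes of the adipocyte lists that had too few counts to pass the filter, 7 were highest in mouse 10 and the others in mouse 2, 5, 15, 19 or 21. Here and below, mice were ranked by raw counts. Mouse 10 had the largest library (9567446 counts) and the most symbols detected (16653). The share of all low genes that were highest in mouse 10 is not given here. *Adrb3*, the β3 adrenergic receptor of fat cells, had 0 to 32 counts and was at 0 in 10 mice. *Adig*, adipogenin, had 0 to 29 counts with 9 mice at 0, and *Mrap*, an accessory protein of melanocortin receptors, 0 to 19 counts with 10 mice at 0. The insulin-regulated glucose transporter *Slc2a4* had 0 to 21 counts with 3 mice at 0. Each of these 4 genes was highest in mouse 10. *Pnpla3* had 0 to 75 counts, also highest in mouse 10.

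The T cell genes of the lymphocyte list did not pass the filter either. *Cd3e* had 0 to 44 counts with 9 mice at 0, *Cd4* 0 to 155 counts with 5 mice at 0 and *Cd8a* 0 to 124 counts with 11 mice at 0, each highest in mouse 10. Of the hepatocyte genes, *Serpina3k* reached 719 counts and *Fgb* 329 counts in mouse 19 at day 14, and both were at 0 in 20 mice. *Cyp2e1* of the same list moved with *Adipoq* (r = 0.864). Among the lipase partners *Apoa5* and *Apoc3*, made by liver, were also highest in mouse 19, with 53 and 49 counts.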
